A study of Mus musculus with 12 samples.

Results

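The 3 samples of brainstem progenitors infected with *ACVR1* R206H and H3.1K27M were compared with the 3 infected with *ACVR1* WT alone, which is 6 of the 12 samples sequenced. The remaining 6 carried *ACVR1* R206H alone or *ACVR1* WT with H3.1K27M, 3 samples each, and are given where they show which step of the combination moved a gene. All cells came from Nestin TVA; p53 floxed pups on a C57BL/6 background, aged postnatal day 3 to 5, and were grown without serum in EGF and FGF2 as neurospheres. RCAS viruses enter only cells with the TVA receptor, which the nestin promoter drives here, so the vectors reached nestin-expressing progenitors. Both groups of this comparison received a human *ACVR1* vector, and neither label names a Cre vector, so the floxed *Trp53* alleles are part of the background that all groups share. Samples were chosen by their labels, and nothing measured entered the choice. The comparison asks how far the transcriptome of a brainstem progenitor moves when both lesions of the tumour are present.

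ACVR1 (ALK2) is a type I receptor for bone morphogenetic proteins (BMPs). When active it phosphorylates SMAD1, SMAD5 and SMAD9, which join SMAD4 and switch on genes such as the *Id* family of transcriptional inhibitors. The R206H change lies next to the kinase domain and makes the receptor signal too readily. H3.1K27M replaces the lysine of histone H3.1 on which Polycomb repressive complex PRC2 places its silencing mark, and it lowers that mark across the genome. Both changes are known from diffuse intrinsic pontine glioma, a childhood tumour of the pons.

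Values below are CPM, the count of a gene scaled to its library size with TMM factors over the 12 samples, listed for replicates 1, 2 and 3 in that order. Fold changes are on the log2 scale, both mutations over *ACVR1* WT, and "rose", "fell" and "called" mean an adjusted p under 0.05 in edgeR's quasi-likelihood F test on the 6 samples, with Benjamini-Hochberg adjustment over all genes tested. Libraries held 19542127 to 21397108 counts in *ACVR1* WT and 20828944 to 26456257 with both mutations. The labels do not say whether replicates are separate cultures, so p-values measure only the spread between these samples.

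Replicate 1 of *ACVR1* WT stood apart from the other *ACVR1* WT samples. Its log2 CPM across genes correlated at 0.961 and 0.977 with replicates 3 and 2 of its own group, and at 0.991 to 0.994 with the samples of *ACVR1* R206H alone. Replicates 2 and 3 correlated at 0.993 with each other and at 0.975 to 0.992 with *ACVR1* R206H alone. With the samples of both mutations they correlated at 0.942 to 0.956, and replicate 1 at 0.967 to 0.971. Replicate 1 was thus nearer to the samples with both mutations than its companions were. Which of the controls is atypical was not tested. The spread between replicates, as biological coefficient of variation, was 0.274 in *ACVR1* WT and 0.0451 with both mutations. Replicate 1 of *ACVR1* WT carried much more RNA of dividing cells than its 2 companions and less RNA of glial differentiation, as described further on. Counts over gene lists are therefore also given without this sample, with the lowest and highest counts over the 5 fits that leave out 1 of the other samples in parentheses, those that rose first and those that fell second. Fits without replicate 1 rest on its 2 companions as controls, and their p-values leave out the spread that replicate 1 adds. Of the 149 named genes that were called, none lost its call without replicate 1 of *ACVR1* WT, whereas 30 did without replicate 2, 12 without replicate 3 and 30 to 42 without 1 of the samples with both mutations. These genes are given at the end of each account with the range of their log2 fold change over the 6 omissions, or with no range where 1 group held 3 reads or fewer, since the fitted value then depends on the prior count.

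The vector genes were examined first. *Acvr1* (ENSMUSG00000026836, chromosome 2, positions 58388644 to 58567157 of mm10) read 53.1, 46.1 and 52.3 CPM in *ACVR1* WT and 1000.5, 548 and 1056 CPM with both mutations, with log2 fold change 4.10 (standard error 0.27, adjusted p = 0.00057, edgeR). All 3 samples with both mutations lay above all 3 controls. The gene read 114, 82.3 and 86.1 CPM with *ACVR1* R206H alone and 172, 163 and 368 CPM with *ACVR1* WT plus H3.1K27M, so that the 2 groups compared here also differed in the amount of *Acvr1* RNA. Reads of the human vector and of the mouse gene cannot be told apart in these counts. *Hist1h3a* (ENSMUSG00000069265, chromosome 13, positions 23761853 to 23762386), which encodes histone H3.1, read 0.0941, 0.0516 and 0 CPM in *ACVR1* WT and 50.7, 39.5 and 55.2 CPM with both mutations. The *ACVR1* WT group held 3 reads of it in all, and the ratio of the groups was 995, with an exact counting interval (95%) of 340 to 4828. *Hist1h3b* and *Hist1h3i*, near-identical H3.1 genes, behaved likewise and reached 27.1 and 12.5 CPM on average with both mutations. The H3.1 genes resemble each other closely and the vector encodes the same protein, so which copy these reads came from is uncertain. They were near 0 in every sample without H3.1K27M and present in every sample with it, as the labels say.

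Of 15552 genes that averaged 10 or more normalized counts, 2508 rose and 2256 fell with both mutations, which is 30.6% of those tested (16.1% higher and 14.5% lower). The median log2 fold change of all genes was -0.04, on a scale that TMM centres. The genes that rose moved further than those that fell, with a median of 1.01 against -0.54 on the log2 scale. Changes of at least 1 on that scale were found for 1275 genes that rose and 533 that fell. At the far end, 156 genes rose and 90 fell by at least 3. The 2 groups did not overlap at all for 49.7% of the genes tested, called or not. The share called was 32.7% of 13523 protein-coding genes, 19.8% of 1164 long noncoding genes and 14.4% of 563 pseudogenes, classes that were not matched for level. The plot of fold change against level shows the longer reach of the genes that rose.

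**Figure D1:**
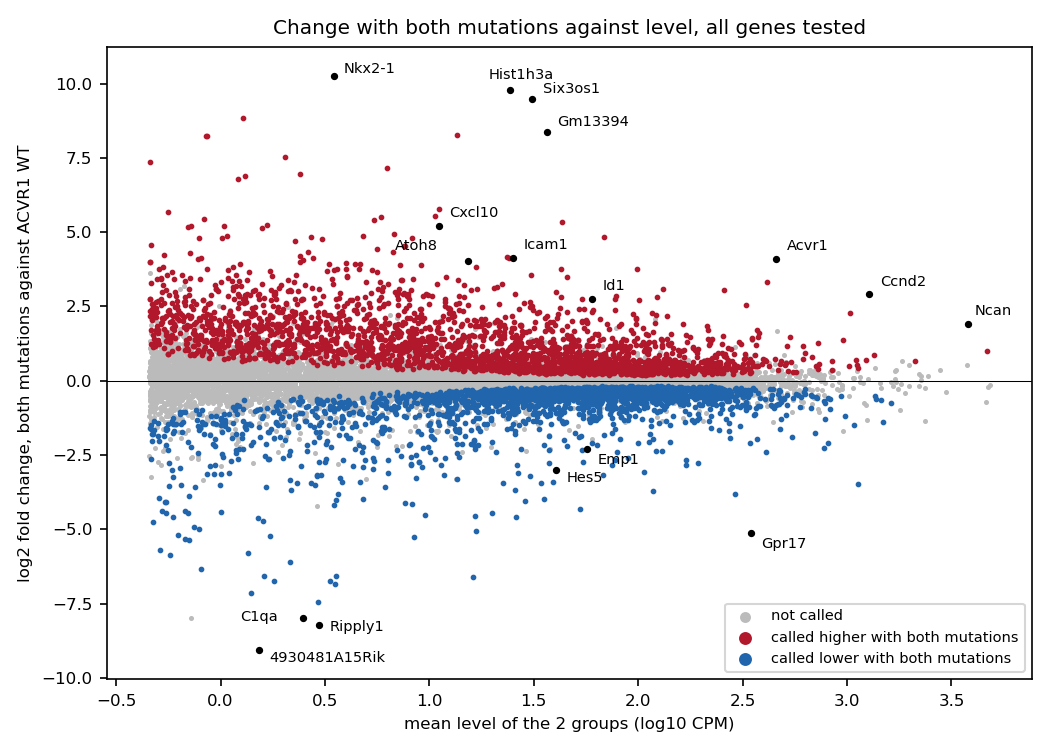
Log2 fold change of both mutations over *ACVR1* WT (vertical axis) against the mean level of the 2 groups in log10 CPM (horizontal axis), 1 point per gene tested; red and blue points have an adjusted p under 0.05. The 2508 red points reach further from 0 than the 2256 blue ones, and the fitted values of genes with no read in 1 group, such as *Nkx2-1* and *4930481A15Rik*, depend on the prior count.

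The number of calls was sensitive to single samples, in both directions. It was 2413 without replicate 2 of *ACVR1* WT, 3978 without replicate 3, and 2095, 2240.0 and 1792 without replicates 1, 2 and 3 of both mutations, the last with 1223 higher and 569 lower. Over the gene lists together, 189 calls became 308 without replicate 1 of *ACVR1* WT and 99 to 166 with 1 of the other samples left out. Without replicate 1 of *ACVR1* WT, 4341 genes rose (27.8%) and 4407 fell (28.2%), together 55.9% of 15637, and 4745 of the 4761 genes called on all samples and still tested were called again, each with the same sign. Counts over lists are to be read beside 16.1% higher and 14.5% lower of all genes with all 6 samples, and beside 27.8% higher and 28.2% lower without that replicate. No gene was called between *ACVR1* R206H alone and *ACVR1* WT (0 of 15066, with 534 at an unadjusted p under 0.05), whereas DESeq2 called 26 there and edgeR without that replicate 3485 (23.1%, 12.1% higher and 11.0% lower). Between *ACVR1* WT with and without H3.1K27M, 1939 genes rose (12.6%) and 1594 fell (10.4%), together 23.0% of 15385, and without that replicate 52.6% were called (26.9% higher and 25.6% lower). Against *ACVR1* R206H alone, the samples with both mutations had 4510 genes higher (29.1%) and 4235 lower (27.4%), together 56.5% of 15482. Against *ACVR1* WT with H3.1K27M they had 1783 higher (11.4%) and 1402 lower (8.95%), together 20.3% of 15672. With all 12 samples in one fit 440 genes were called there. These comparisons share samples with the main one and with each other, and their counts depend on the spread of each pair of groups, so they are set side by side here and are not tests of each other.

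Most BMP target genes that changed rose with both mutations. Of the 25 targets listed, 21 passed the filter, 13 rose and 3 fell, with a median log2 fold change of 1.17 against -0.04 over all genes. Without replicate 1 of *ACVR1* WT, 16 rose and 5 fell of 22 (11 to 13 and 1). *Id1* (ENSMUSG00000042745, chromosome 2, positions 152736251 to 152737410), an inhibitor of basic helix-loop-helix factors, read 12.5, 11.9 and 21.8 CPM in *ACVR1* WT and 103, 94.1 and 118 CPM with both mutations. The lowest sample with both mutations was more than 4 times the highest control, with log2 fold change 2.77 (standard error 0.25, adjusted p = 0.0012, edgeR). *Id1* averaged 35.8 ± 4.22 CPM (SD, n = 3) with *ACVR1* R206H alone and 13.4 ± 0.825 CPM (SD, n = 3) with *ACVR1* WT plus H3.1K27M. *Id2* read 156, 190.3 and 242 CPM against 547, 498 and 605 CPM with both mutations, a log2 fold change of 1.49 (adjusted p = 0.0025, edgeR). *Id3* read 71.4, 88.7 and 122 CPM in *ACVR1* WT and 336, 296 and 369.8 CPM with both mutations, a log2 fold change of 1.83 (adjusted p = 0.0022, edgeR). The controls of these 2 genes spread with replicate 1 lowest, and their highest sample still lay under every sample with both mutations. The fourth member of the family, *Id4*, named after its values were seen, was not called. *Id4* read 14.6, 64.9 and 88.97 CPM in *ACVR1* WT and 45.7, 42.03 and 54.01 CPM with both mutations, groups that overlapped, with a log2 fold change of -0.25 (adjusted p = 0.77, edgeR) that became -0.70 without replicate 1 of *ACVR1* WT (adjusted p = 0.0045, edgeR).

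Inhibitors of the pathway did not all move one way. *Smad6* read 1.08, 0.619 and 0.534 CPM in *ACVR1* WT and 5.18, 5.23 and 5.94 CPM with both mutations, so all controls were near 1 CPM or less while the others exceeded 5. *Smad6* encodes an inhibitory SMAD, and it had log2 fold change 2.86 (standard error 0.28, adjusted p = 0.0014, edgeR). The other inhibitory SMAD gene, *Smad7*, read 3.62, 5.31 and 4.902 CPM against 10.5, 9.26 and 11.3 CPM, with a log2 fold change of 1.17. *Nog*, whose product noggin binds BMP ligands outside the cell, read 0.941, 1.96 and 2.28 CPM against 11.7, 10.7 and 17.6 CPM, with a log2 fold change of 2.95 (adjusted p = 0.0028, edgeR). The decoy receptor gene *Bambi* rose by 1.24 and the activin and BMP antagonist gene *Fst* by 2.44 on the log2 scale. The antagonist gene *Chrdl1*, named after its values were seen, read 64.5, 28.01 and 21.6 CPM against 50.3, 46.97 and 54.4 CPM and was not called (adjusted p = 0.46, edgeR), but without replicate 1 of *ACVR1* WT it was called higher, by 1.03 (adjusted p = 0.00022, edgeR). The SMAD repressor gene *Skil* and the antagonist gene *Smoc1* fell, as given further on. *Atoh8*, a transcription factor gene that BMP signalling activates, had the largest change of the list. *Atoh8* read 1.13, 2.32 and 1.796 CPM in *ACVR1* WT and 28.4, 24.7 and 33.3 CPM with both mutations, with log2 fold change 4.04 (standard error 0.27, adjusted p = 0.00057, edgeR). Leaving out 1 sample at a time ended the call of *Bambi* (2 of 6 omissions, 1.04 to 1.52) and *Skil* (5 of 6 omissions, -0.33 to -0.23).

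Set beside each other, these genes did not all follow the same step. For *Atoh8* the log2 fold change was 3.38 against *ACVR1* WT with H3.1K27M and 2.36 against *ACVR1* R206H alone. *Smad9*, the BMP-responsive receptor SMAD, rose by 1.98 against *ACVR1* WT and by 1.70 and 1.26 in the same 2 comparisons. By contrast *Bmper*, which encodes a secreted BMP modulator, read 41.8, 39.5 and 40.9 CPM with both mutations, 37.1, 33.3 and 36.3 CPM with *ACVR1* WT plus H3.1K27M, and 13.1, 11.7 and 13.3 CPM with *ACVR1* R206H alone. Its level with both mutations was thus close to that with H3.1K27M and *ACVR1* WT. Listed targets that fell were *Gata3* (-1.07), *Tmem100* (-0.99) and *Skil* (-0.27). In the plot of BMP genes by sample, *Id1*, *Id2* and *Id3* are highest with both mutations and *Icam1* is similarly high in both H3.1K27M groups. Calls that ended on omission of a sample were those of *Tmem100* (5 of 6 omissions, -1.26 to -0.78).

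**Figure D2:**
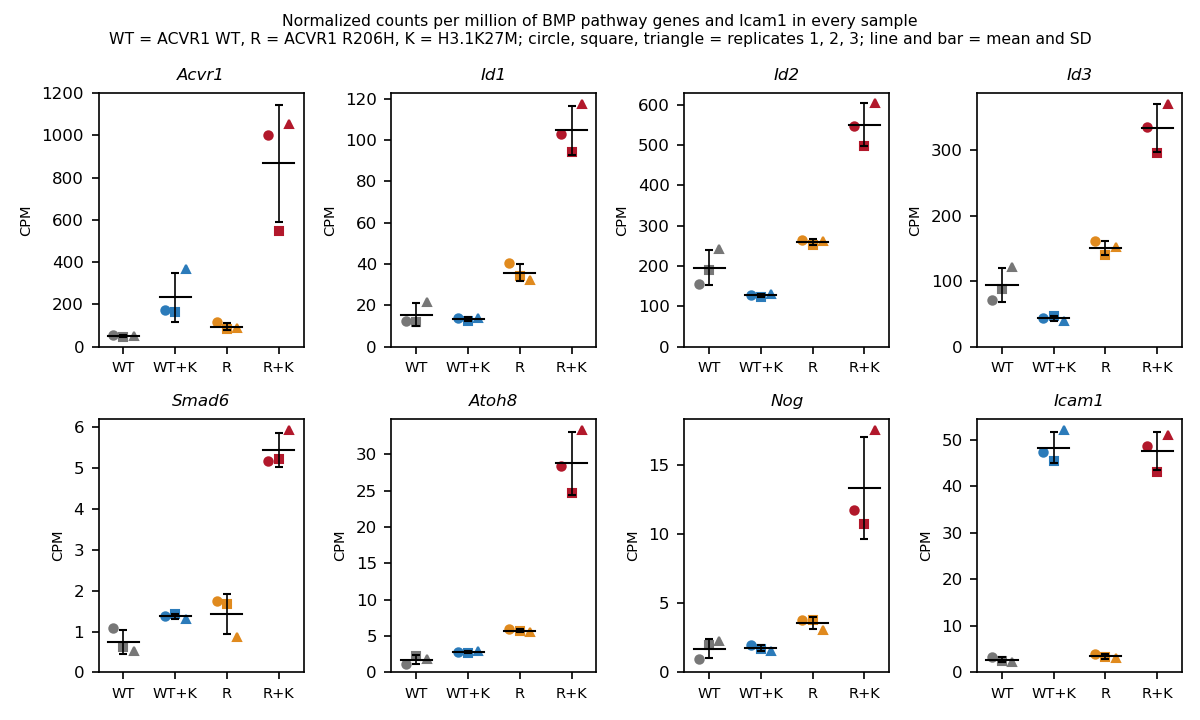
CPM (vertical axes, from 0) of *Acvr1*, 6 BMP target genes and *Icam1* in all 12 samples, by group; symbols are replicates, the line is the mean and the bar the SD of 3 samples. For *Id1* the samples with both mutations lie between 94.1 and 118 CPM and every other sample at or below 40.5 CPM.

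Receptors and SMAD transducers went both ways. Of 17 tested, 7 rose and 6 fell, and 9 rose and 7 fell without replicate 1 of *ACVR1* WT (2 to 4 and 2 to 4). Of all genes, 16.1% rose and 14.5% fell, and 27.8% and 28.2% without that replicate. *Bmpr1a*, a type I BMP receptor gene, read 303, 335 and 381 CPM in *ACVR1* WT and 573, 524 and 601 CPM with both mutations, a log2 fold change of 0.74. Its sister gene *Bmpr1b* moved the other way, with 78.95, 128 and 151 CPM against 65.8, 68.3 and 67.8 CPM and a log2 fold change of -0.82 (adjusted p = 0.036, edgeR). *Eng*, a coreceptor gene of endothelial cells, rose by 2.36 and *Acvr1c* by 1.98. *Smad1*, *Smad4* and *Tgfbr1* fell by 0.43, 0.37 and 0.63 on the log2 scale, small changes beside those of the targets. With 1 sample omitted the call was lost for *Bmpr1b* (5 of 6 omissions, -1.05 to -0.61), *Eng* (1 of 6 omissions, 2.06 to 3.103), *Acvr1c* (2 of 5 omissions, 1.61 to 2.61) and *Smad1* (1 of 6 omissions, -0.49 to -0.39).

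Genes that set position along the neural tube changed in opposite directions. *Six3*, a regulator of the anterior forebrain, was barely present in *ACVR1* WT. *Six3* read 0.282, 0.206 and 0.243 CPM in *ACVR1* WT and 11.1, 8.79 and 11.9 CPM with both mutations (ENSMUSG00000038805, chromosome 17, positions 85613608 to 85629302), with log2 fold change 5.41 (standard error 0.22, adjusted p = 0.00016, edgeR). Its antisense neighbour *Six3os1* had the smallest adjusted p of all genes, with 0.0941, 0.103 and 0.0485 CPM against 62.5, 56.9 and 66.7 CPM and a log2 fold change of 9.47 (adjusted p = 1.4e-05, edgeR). The counting took no account of strand, so reads in the overlap of these neighbours cannot be told apart. *Nkx2-1* (ENSMUSG00000001496, chromosome 12, positions 56531958 to 56536908), which specifies the ventral forebrain, had no read in any *ACVR1* WT sample and 7.51, 5.88 and 7.51 CPM with both mutations. Against a floor of 3 counts per library it was at least 47.3-fold higher, and its relative *Nkx2-4* was at least 17.5-fold higher by the same floor. The noncoding *Sfta3-ps*, beside *Nkx2-1*, had no read in *ACVR1* WT either and was at least 11.6-fold higher, and the noncoding *Gm49708* on chromosome 16 at least 11.7-fold.

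The forebrain and midbrain regulators *Otx1*, *Otx2* and *Lhx2* rose by 2.89, 2.14 and 2.10 on the log2 scale. *Otx2* read 5.88, 3.095 and 5.15 CPM in *ACVR1* WT and 22.8, 19.9 and 19.8 CPM with both mutations, groups that did not overlap. *Pax7* and *En1*, known from the midbrain, rose by 2.63 and 0.96. The *Hox* genes, which mark hindbrain and spinal cord, went down with all 6 samples. Only 9 of 39 passed the filter, all from the *Hoxa* and *Hoxb* clusters, and all 9 fell, as did 9 without replicate 1 of *ACVR1* WT (3 to 7 over the other 5 omissions), with a median log2 fold change of -1.52. *Hoxa2* read 5.03, 8.31 and 9.805 CPM against 2.76, 3.002 and 2.99 CPM, and *Hoxb3* had the largest fold of the list, -2.28 on the log2 scale. These levels are low, and the whole list summed to 27.2 to 34.6 CPM in *ACVR1* WT and 11.7 to 13.4 CPM with both mutations. Of the regulators outside the *Hox* clusters that Polycomb is known to silence in other tissues, 25 of 51 passed the filter, 7 rose and 6 fell, and without replicate 1 of *ACVR1* WT 10 rose and 9 fell of 24 (6 to 8 and 3 to 7). Those that fell included *Prrx2* (8.799, 14.9 and 19.1 CPM against 1.47, 1.501 and 2.99 CPM), *Irx1* (-1.58), *Nkx6-2* (-1.63) and *Pax3* (-0.81). Omission of single samples ended the calls of *En1* (4 of 6 omissions, 0.81 to 1.198), *Hoxa2* (3 of 6 omissions, -1.63 to -1.18), *Hoxb3* (2 of 6 omissions, -2.77 to -1.97) and *Nkx6-2* (4 of 6 omissions, -1.93 to -1.18).

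Some of these regional genes, *Six3* and *Hoxa2* among them, stepped between the groups without and with H3.1K27M. *Six3* read 0.151, 0.208 and 0 CPM with *ACVR1* R206H alone and 6.97, 6.26 and 6.52 CPM with *ACVR1* WT plus H3.1K27M. *Hoxa2* read 5.48, 6.65 and 5.74 CPM and 1.58, 1.96 and 2.24 CPM in the same groups. The labels do not say whether cultures with and without H3.1K27M came from the same dissection. A difference between dissections and an effect of H3.1K27M therefore cannot be told apart for genes that mark a region. The pseudogene *Gm13394* stepped in the same way, with 0.235, 0.258 and 0.146 CPM in *ACVR1* WT, 0.0503, 0.2599 and 0.146 CPM with *ACVR1* R206H alone, 73.2, 62.2 and 67.00 CPM with *ACVR1* WT plus H3.1K27M and 67.4, 71.9 and 79.4 CPM with both mutations. As a processed pseudogene it may share reads with the gene it was copied from, so its identity is uncertain. The heatmap of regional, interferon, p53 and microglial genes shows these steps.

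**Figure D3:**
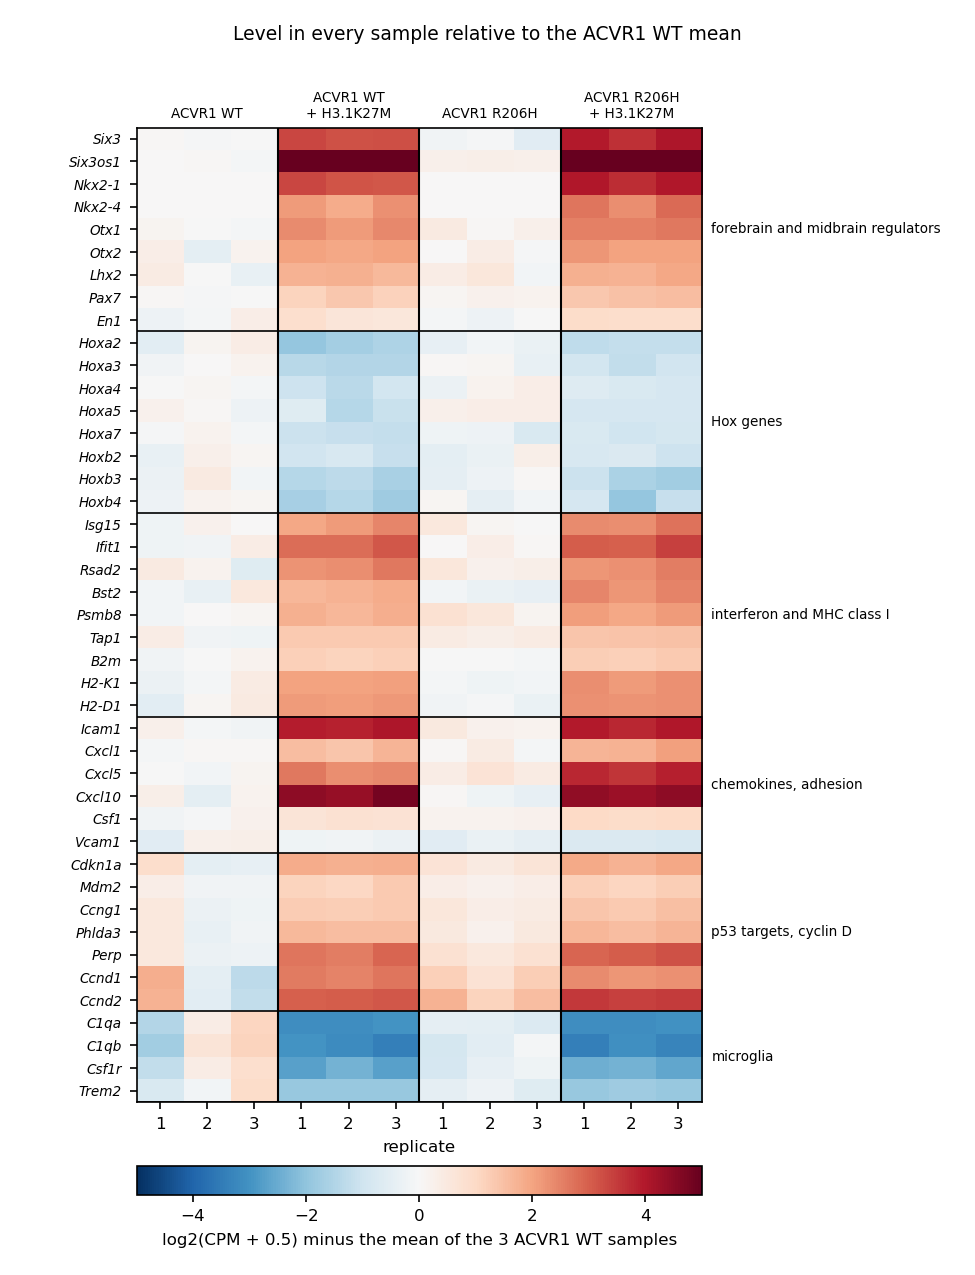
Level of 43 genes in the 12 samples, as log2(CPM + 0.5) minus the mean of the 3 *ACVR1* WT samples, with colours capped at 5 in either direction. Most rows change between the columns without and with H3.1K27M, whereas the p53, cyclin D and microglial rows also differ between replicate 1 and replicates 2 and 3 of *ACVR1* WT.

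Interferon-stimulated and MHC class I genes rose almost throughout. Of 20 members tested, 18 rose and 0 fell, a share to be read beside the 16.1% of all genes that rose, and the median log2 fold change was 1.64. Without replicate 1 of *ACVR1* WT, 19 rose and 0 fell (15 to 18 and 0). *Irf1* and *Stat2* were the members not called. *Ifit1* read 1.98, 2.01 and 3.204 CPM in *ACVR1* WT and 22.4, 22.1 and 30.2 CPM with both mutations, with log2 fold change 3.37 (standard error 0.24, adjusted p = 0.00070, edgeR). *Ifit1* encodes an antiviral protein that binds foreign RNA. *Isg15*, a ubiquitin-like modifier gene, read 1.51, 2.17 and 1.84 CPM against 11.3, 11.02 and 14.8 CPM, with a log2 fold change of 2.75 (adjusted p = 0.00071, edgeR). In both genes every sample with both mutations lay several times above every control.

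*B2m*, the invariant light chain of MHC class I, read 163, 181 and 210.0 CPM against 437, 425 and 457 CPM, with a log2 fold change of 1.25. *H2-K1*, a heavy chain gene, read 26.3, 29.9 and 42.8 CPM against 162, 144 and 159.9 CPM, with a log2 fold change of 2.24 (adjusted p = 0.00092, edgeR). *H2-D1* rose by 2.23, the immunoproteasome subunit gene *Psmb8* by 2.38 and the peptide transporter gene *Tap1* by 1.43. H2 genes resemble each other closely, and reads matching more than 1 of them were left out of the counts. With *ACVR1* WT plus H3.1K27M, *Ifit1* averaged 20.7 ± 2.76 CPM (SD, n = 3), and with *ACVR1* R206H alone 2.65 ± 0.407 CPM (SD, n = 3). The summed level of the list ran from 408 to 529 CPM in *ACVR1* WT and from 1241 to 1378 CPM with both mutations. Of 8 microglial and macrophage markers tested, 0 rose and 6 fell, beside 16.1% and 14.5% of all genes. The 11 listed summed to 10.2 to 45.7 CPM in *ACVR1* WT and 5.06 to 6.95 CPM with both mutations. *C1qa*, *Trem2* and *Csf1r* were at or near 0 with both mutations, whereas *P2ry12* and *Cd68*, not called, read 2.28, 1.54 and 2.503 CPM and 3.71, 2.79 and 3.59 CPM there. In bulk RNA fewer cells of a type and less RNA per cell cannot be told apart, and the part of these cells in the interferon result was not tested. Among these genes, calls depending on 1 sample were those of *C1qa* (1 of 6 omissions) and *Trem2* (2 of 5 omissions).

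The sequence before the start site is shown for 3 interferon genes, whose list rose almost throughout, and for *Icam1* and *Cxcl10*, which are described next. The sequences are from RefSeq (GRCm38.p6) and end at the base before the start site in RefSeq, which for *Icam1* lies 45 bases before the gene start given below and for *Ifit1* 18 bases after the gene start in the annotation. Capitals mark 2 copies of GAAA with any 2 bases between them, the core of the interferon-stimulated response element (ISRE), in the first 3, and GGAANTTCC, a kappa B type sequence, in the last 2, each searched on both strands.
Isg15: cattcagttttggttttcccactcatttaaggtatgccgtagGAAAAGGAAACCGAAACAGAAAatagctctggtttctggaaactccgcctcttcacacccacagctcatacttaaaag
Ifit1: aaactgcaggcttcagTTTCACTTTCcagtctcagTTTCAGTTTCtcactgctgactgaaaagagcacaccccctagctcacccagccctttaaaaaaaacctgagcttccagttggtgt
Rsad2: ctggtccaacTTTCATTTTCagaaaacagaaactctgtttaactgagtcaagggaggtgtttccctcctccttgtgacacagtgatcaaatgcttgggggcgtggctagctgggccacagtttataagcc
Icam1: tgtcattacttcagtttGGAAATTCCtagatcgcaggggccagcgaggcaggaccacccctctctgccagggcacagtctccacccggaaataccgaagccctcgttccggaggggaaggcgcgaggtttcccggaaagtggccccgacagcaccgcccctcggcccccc
Cxcl10: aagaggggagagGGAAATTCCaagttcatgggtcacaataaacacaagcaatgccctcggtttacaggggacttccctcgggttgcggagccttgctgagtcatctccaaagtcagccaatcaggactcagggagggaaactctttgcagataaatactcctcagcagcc
The Isg15 stretch is chr4:156200819-156200938 (minus strand), the Ifit1 stretch chr19:34640769-34640888 (plus strand) and the Rsad2 stretch chr12:26456453-26456582 (minus strand). Icam1 is chr9:21015770-21015939 (plus strand) and Cxcl10 chr5:92348890-92349059 (minus strand). In the 250 bases before the start, the ISRE core was present in 7 of the 17 interferon list members with a sequence and in 2.40% of 11277 tested genes with one. GGAANTTCC was present in 5 of 13 members of the NF-kB, chemokine and adhesion list (*Icam1*, *Cxcl10*, *Cxcl1*, *Nfkbia* and *Tnfaip3*) and in 0.878% of those genes. GGCGCC, which BMP-activated SMADs are known to bind, was searched as well. It was present in 4 of 12 BMP targets with a sequence (33.3%), in 5 of 15 genes of the growth factor receptor and ERK list (33.3%), in 3 of 9 glutamate and GABA receptor and synapse genes (33.3%) and in 17.3% of all those genes. The ISRE core was also present in 3 of 13 members of the NF-kB, chemokine and adhesion list (*Cxcl10*, *Cxcl14* and *Tnfrsf1b*). Among angiogenesis factors it was present in 2 of 13 (15.4%). Only the kappa B type match is marked in *Cxcl10* above. Such matches describe the sequence and are not evidence of binding. Leaving out 1 sample at a time ended the call of *Nfkbia* (3 of 6 omissions, 0.53 to 0.74).

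*Icam1* (ENSMUSG00000037405, chromosome 9, positions 21015985 to 21028817), an adhesion receptor for leukocytes, was among the 12 genes with the smallest adjusted p that rose. *Icam1* read 3.34, 2.48 and 2.33 CPM in *ACVR1* WT and 48.7, 43.1 and 51.1 CPM with both mutations, with log2 fold change 4.13 (standard error 0.16, adjusted p = 0.00016, edgeR). Its level in *ACVR1* WT with H3.1K27M was 47.5, 45.4 and 52.04 CPM and with *ACVR1* R206H alone 4.02, 3.22 and 3.11 CPM. The log2 fold change of both mutations against *ACVR1* WT with H3.1K27M was 0.01 (adjusted p = 0.94, edgeR). *Cxcl10*, which attracts T cells, read 0.7999, 0.258 and 0.6795 CPM against 22.4, 19.9 and 22.6 CPM, with a log2 fold change of 5.20 (adjusted p = 0.00048, edgeR). With *ACVR1* R206H alone *Cxcl10* read 0.604, 0.416 and 0.292 CPM, and with *ACVR1* WT plus H3.1K27M 23.1, 20.8 and 28.9 CPM. The neutrophil attractant gene *Cxcl5* read 0.612, 0.516 and 0.728 CPM against 14.9, 12.8 and 16.1 CPM, and it was higher than with *ACVR1* WT plus H3.1K27M (6.47, 5.01 and 5.400 CPM, log2 fold change 1.40). *Cxcl1* held 2 reads in the whole *ACVR1* WT group, and its ratio was 43.9, with an exact counting interval of 11.8 to 368. *Csf1*, the growth factor of microglia and macrophages, rose by 0.97 and *Ccl2* by 2.15. Of 16 members of the list tested, 8 rose and 2 fell, and 10 rose and 2 fell without replicate 1 of *ACVR1* WT (5 to 10 and 0). The ones that fell were *Vcam1*, the adhesion gene usually paired with *Icam1* (169, 301 and 305 CPM against 149, 149.6 and 144 CPM), and *Tnfrsf1b*, a tumour necrosis factor receptor gene of immune cells (-3.50). Calls that ended on omission of a sample were those of *Ccl2* (5 of 6 omissions, 1.76 to 2.95), *Vcam1* (5 of 6 omissions, -1.04 to -0.66) and *Tnfrsf1b* (4 of 5 omissions, -4.05 to -3.05).

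Genes of the STAT3 pathway went both ways. Of 21 members tested, 5 rose (*Icam1*, *Lif*, *Junb*, *Cebpd* and *Osmr*) and 3 fell, beside 16.1% and 14.5% of all genes. The median log2 fold change was 0.20. Without replicate 1 of *ACVR1* WT 9 rose and 4 fell (3 to 6 and 1 to 2), beside 27.8% and 28.2% of all genes. *Lif*, a cytokine that acts through gp130 and STAT3, read 1.27, 1.65 and 2.43 CPM against 10.6, 10.4 and 11.7 CPM, with a log2 fold change of 2.61 (adjusted p = 0.0013, edgeR). *Stat3* itself read 463, 386 and 346 CPM against 434, 407 and 427 CPM, groups that overlapped (log2 fold change 0.09, adjusted p = 0.61, edgeR), and without that replicate its log2 fold change was 0.21 (adjusted p = 0.023, edgeR). *Socs3*, the feedback target of STAT3, read 28.2, 23.5 and 19.9 CPM against 29.7, 23.6 and 25.5 CPM and was not called either (adjusted p = 0.53, edgeR). *Jak2*, the kinase upstream, fell by 0.64 on the log2 scale. With 1 sample omitted the call was lost for *Cebpd* (3 of 6 omissions, 0.84 to 1.18) and *Osmr* (4 of 6 omissions, 0.400 to 0.67).

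Mesenchymal genes rose where they were called. Of 25 tested, 12 rose and 0 fell, and without replicate 1 of *ACVR1* WT 17 rose and 3 fell (5 to 9 and 0 to 1). The shares of all genes were 16.1% higher and 14.5% lower, and 27.8% and 28.2% without that replicate. *Tnc*, the matrix glycoprotein tenascin C, read 183, 61.5 and 61.4 CPM against 322, 330.1 and 338 CPM, with log2 fold change 1.69 (standard error 0.45, adjusted p = 0.033, edgeR). Replicate 1 of *ACVR1* WT was about 3 times its companions for this gene, and without it the log2 fold change was 2.43. *Cd44*, a hyaluronan receptor, read 144, 81.6 and 101 CPM against 225, 202 and 244 CPM, with a log2 fold change of 1.04 (adjusted p = 0.014, edgeR). *Vim* was the most abundant member, with 1637 ± 300.4 CPM against 2570.1 ± 208 CPM (SD, n = 3 each) and a log2 fold change of 0.65. The transcription factor gene *Snai2* read 0.0941, 0.0516 and 0.534 CPM against 1.901, 2.27 and 3.21 CPM, a rise of 3.41 from levels of a few reads. Collagen genes rose as well, *Col1a2* by 2.98, *Col1a1* by 1.68 and *Postn*, a matrix gene that binds them, by 3.06. The pericyte and fibroblast markers, which share *Col1a1* and *Col1a2* with this list, summed to 10.8 to 13.5 CPM in *ACVR1* WT and 29.9 to 35.1 CPM with both mutations, 4 of 6 tested rose, and their part in the result was not tested. *Fn1* was not called (119, 82.6 and 133 CPM against 145, 133 and 139 CPM). Omission of single samples ended the calls of *Tnc* (5 of 6 omissions, 1.43 to 2.43), *Cd44* (2 of 6 omissions, 0.86 to 1.29), *Vim* (5 of 6 omissions, 0.55 to 0.81) and *Snai2* (1 of 6 omissions, 2.96 to 4.98).

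Genes of vessel growth went both ways. *Angpt2*, a vessel-destabilizing ligand, read 5.51, 1.29 and 0.971 CPM against 47.2, 40.8 and 49.3 CPM, with log2 fold change 4.13 (standard error 0.62, adjusted p = 0.0057, edgeR). With *ACVR1* R206H alone *Angpt2* read 3.52, 2.13 and 3.74 CPM, and with *ACVR1* WT plus H3.1K27M 37.4, 34.1 and 43.1 CPM. *Angpt1*, the ligand that opposes it at the same receptor, read 68.9, 218 and 278 CPM against 48.01, 49.5 and 48.1 CPM, with a log2 fold change of -1.95 (adjusted p = 0.025, edgeR). Replicate 1 of *ACVR1* WT was the closest to the mutant samples in both genes. *Vegfc* rose by 1.67 and *Nrp1* by 0.90, whereas *Vegfa* read 59.3, 72.02 and 109.9 CPM against 97.4, 91.5 and 98.6 CPM and was not called. *Adm*, the vasodilator adrenomedullin, fell by 2.12 on the log2 scale, from 23.4, 19.6 and 23.01 CPM to 4.61, 5.404 and 5.15 CPM. It read 12.9, 12.3 and 11.4 CPM with *ACVR1* WT plus H3.1K27M and 19.6, 21.2 and 23.3 CPM with *ACVR1* R206H alone. In all, 7 of 17 angiogenesis factors rose and 3 fell, against 9 and 5 without replicate 1 of *ACVR1* WT (5 to 7 and 1 to 2). Over all genes 16.1% rose and 14.5% fell, against 27.8% and 28.2% without that replicate. Among these genes, calls depending on 1 sample were those of *Angpt1* (5 of 6 omissions, -2.35 to -1.55).

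In the list of p53 targets, D-type cyclins and CDK inhibitors, most members rose with all 6 samples. Of 18 members tested, 13 rose and 1 fell, with a median log2 fold change of 1.14. Without replicate 1 of *ACVR1* WT 16 rose and 1 fell (5 to 10 and 1). *Cdkn1a*, the CDK inhibitor p21, read 289.9, 113 and 119 CPM against 579.6, 526 and 595 CPM, with log2 fold change 1.71 (standard error 0.38, adjusted p = 0.020, edgeR). *Mdm2*, which encodes the ubiquitin ligase of p53, read 101, 70.8 and 70.1 CPM against 181, 168 and 185 CPM, with a log2 fold change of 1.15 (adjusted p = 0.0037, edgeR). The groups did not overlap for either gene. *Perp*, a p53 target in cell death and adhesion, rose by 3.13, *Phlda3* by 1.59 and the abundant *Ccng1* by 1.36. *Trp53* RNA itself read 126, 82.2 and 76.1 CPM against 88.7, 79.3 and 87.6 CPM and was not called (adjusted p = 0.58, edgeR). *Cdkn1b*, the CDK inhibitor p27, fell by 0.55 on the log2 scale. In the groups of 1 mutation, *Cdkn1a* read 577, 536 and 552 CPM with *ACVR1* WT plus H3.1K27M and 254, 217 and 245 CPM with *ACVR1* R206H alone. Leaving out 1 sample at a time ended the call of *Cdkn1a* (4 of 6 omissions, 1.47 to 2.29).

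*Ccnd2*, a cyclin that drives cells out of G1, spread widely in the controls. *Ccnd2* read 677, 142 and 85.8 CPM in *ACVR1* WT and 2337, 2140.4 and 2303 CPM with both mutations, with log2 fold change 2.91 (standard error 0.78, adjusted p = 0.035, edgeR). *Ccnd1* read 508, 101 and 57.4 CPM against 732, 672 and 712 CPM, and although the groups did not overlap it was not called (adjusted p = 0.15, edgeR). The spread of the controls was wide for both cyclins, with replicate 1 at several times the others. In the fit without that sample, replicates 2 and 3 were the only controls. There the log2 fold changes were 4.32 for *Ccnd2* and 3.16 for *Ccnd1*, both called (adjusted p = 5.7e-06 and 2.4e-05, edgeR). Calls that ended on omission of a sample were those of *Ccnd2* (4 of 6 omissions, 2.48 to 4.32).

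Genes of DNA replication and mitosis show how much the comparison rests on that sample. With all 6 samples, edgeR called 0 of 30 higher and 0 lower, with 0 at an unadjusted p under 0.05, DESeq2 called 0 and limma with sample quality weights 27. The limma fit weighted replicates 1, 2 and 3 of *ACVR1* WT at 0.102, 2.98 and 0.465, so replicate 1 counted for little in it. In edgeR without replicate 1 of *ACVR1* WT 29 rose and 0 fell (0 and 0), in a fit that called 27.8% of all 15637 genes higher and 28.2% lower. *Mki67*, a marker of cycling cells, read 337, 92.2 and 31.1 CPM against 140.2, 175 and 127 CPM. *Top2a* read 554, 161 and 59.1 CPM against 243, 259 and 227 CPM, and *Mcm5*, a subunit of the replicative helicase, 148, 38.1 and 15.4 CPM against 73.96, 72.6 and 68.5 CPM. The samples with both mutations lay between the highest and lowest control in all 3. The summed level of the list was 4188, 1230.0 and 588 CPM in *ACVR1* WT, 1897 to 2036 CPM with both mutations and 2366 to 2959 CPM with *ACVR1* R206H alone. The log2 fold change of *Mki67* was -0.06 with all samples and 1.27 without replicate 1. No direction can be given for proliferation from these 3 controls.

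**Figure D4:**
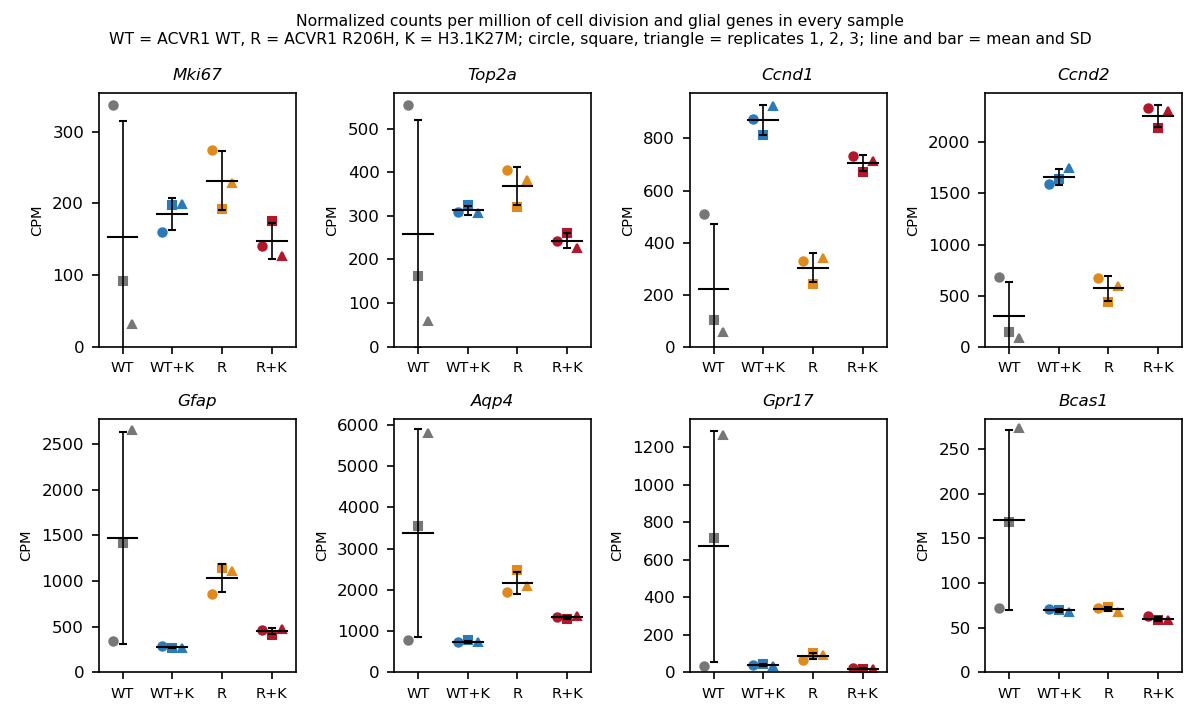
CPM (vertical axes, from 0) of 4 cell division genes and 4 glial genes in all 12 samples, by group; symbols are replicates, the line is the mean and the bar the SD of 3 samples, cut at 0. Replicate 1 of *ACVR1* WT (circle) is the highest control for *Mki67* at 337 CPM and the lowest for *Gpr17* at 36.2 CPM.

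Among feedback genes of ERK signalling and growth factor receptors more members rose than fell. Of 23 genes tested, 9 rose and 3 fell, and without replicate 1 of *ACVR1* WT 13 rose and 6 fell (4 to 8 and 1 to 2), beside 27.8% higher and 28.2% lower of all genes. *Ier3*, an immediate early gene, had the smallest adjusted p among those that rose. *Ier3* read 7.25, 3.302 and 3.88 CPM in *ACVR1* WT and 59.6, 49.9 and 60.1 CPM with both mutations, a log2 fold change of 3.55 (adjusted p = 0.00097, edgeR). *Spry1*, a sprouty inhibitor of receptor tyrosine kinase signals, read 64.8, 18.1 and 8.45 CPM against 217, 207 and 222 CPM, with a log2 fold change of 2.82 (adjusted p = 0.028, edgeR). *Spry4* rose by 2.32 and *Etv4* by 1.52, whereas *Dusp6* with 103, 25.02 and 9.22 CPM against 205, 182 and 200.2 CPM was not called with all samples (without replicate 1 of *ACVR1* WT, adjusted p = 8.4e-05, edgeR). In *Ier3*, *Spry1*, *Spry4*, *Etv4* and *Dusp6* replicate 1 of *ACVR1* WT again lay nearest to the mutant samples. Among the FGF receptors, *Fgfr1* and *Fgfr2* rose by 1.06 and 1.24, and *Fgfr3* fell by 1.40 on the log2 scale, from 207, 277 and 245 CPM to 91.7, 93.7 and 90.99 CPM. *Pdgfra*, a receptor often altered in this tumour, read 129.8, 428 and 299 CPM against 137, 150.1 and 118 CPM and was not called (adjusted p = 0.087, edgeR), though it was called lower without that replicate (log2 fold change -1.42, adjusted p = 0.00021, edgeR). *Kit* and *Erbb3* fell by 1.36 and 1.25 on the log2 scale. With 1 sample omitted the call was lost for *Spry1* (4 of 6 omissions, 2.39 to 4.03), *Spry4* (4 of 6 omissions, 1.895 to 3.42), *Etv4* (4 of 6 omissions, 1.18 to 2.19), *Kit* (5 of 6 omissions, -1.68 to -1.02) and *Erbb3* (4 of 6 omissions, -1.54 to -1.02).

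Notch pathway and neural progenitor genes were led by *Hes5*. *Hes5* (ENSMUSG00000048001, chromosome 4, positions 154960923 to 154962371), a Notch target that keeps progenitors undifferentiated, read 64.7, 85.8 and 65.5 CPM in *ACVR1* WT and 8.699, 9.56 and 8.52 CPM with both mutations, with log2 fold change -3.01 (standard error 0.14, adjusted p = 0.00025, edgeR). With *ACVR1* R206H alone *Hes5* read 60.4, 76.2 and 69.5 CPM, and with *ACVR1* WT plus H3.1K27M 11.5, 10.7 and 6.56 CPM. The Notch ligand gene *Dll1* read 117, 148 and 103 CPM against 50.7, 52.2 and 43.8 CPM, with a log2 fold change of -1.32 (adjusted p = 0.0024, edgeR). *Dll3*, an inhibitory ligand, fell by 2.34 and the feedback gene *Nrarp* by 1.55 on the log2 scale. The ligand genes *Jag1* and *Jag2* rose, *Jag1* from 39.99, 22.03 and 18.4 CPM to 93.2, 79.6 and 87.4 CPM. Of 17 Notch genes tested, 3 rose and 7 fell, and without replicate 1 of *ACVR1* WT 5 rose and 8 fell (1 to 3 and 5 to 6). Of 19 progenitor genes, 4 rose and 4 fell, and without replicate 1 of *ACVR1* WT 8 rose and 7 fell (1 to 4 and 2 to 4), beside 27.8% higher and 28.2% lower of all genes. *Sox2* and *Pax6* fell by 0.44 and 0.86, and *Sox3* by 1.32 on the log2 scale. *Nes*, whose promoter drives the virus receptor in these mice, read 404, 131 and 72.5 CPM against 279, 258 and 268 CPM and was not called, whereas without that replicate its log2 fold change was 1.40 (adjusted p = 0.0010, edgeR). The progenitor markers as a list summed to 2314 to 3411 CPM in *ACVR1* WT and 2905 to 2965 CPM with both mutations. Omission of single samples ended the calls of *Jag2* (4 of 6 omissions, 0.88 to 1.45), *Sox2* (2 of 6 omissions, -0.500 to -0.41) and *Pax6* (4 of 6 omissions, -1.04 to -0.71).

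Astrocyte genes that were called were lower. None of 18 astrocyte genes rose and 5 fell, and without replicate 1 of *ACVR1* WT 0 rose and 12 fell (0 to 1 and 3). Beside these stand 16.1% higher and 14.5% lower of all genes, and 27.8% and 28.2% without that replicate. The list summed to 10078 to 29509 CPM in *ACVR1* WT. With both mutations it summed to 13774 to 14044 CPM, inside the range of the controls. *Nfia* and *Nfib*, which start gliogenesis, fell by 0.59 and 0.68 on the log2 scale with tight groups, *Nfia* from 264, 279 and 296 CPM to 183, 190.1 and 184 CPM. *Gfap* read 343, 1412 and 2655 CPM against 466, 412 and 475 CPM, and *Aqp4* 782, 3533 and 5800.3 CPM against 1330.4, 1304 and 1356 CPM. Neither was called, since replicate 1 of the controls lay below the mutant samples and replicates 2 and 3 far above them. Without that replicate, *Gfap* had a log2 fold change of -2.17 and *Aqp4* of -1.81 (adjusted p = 0.00016 and 0.00013, edgeR).

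In the oligodendrocyte lineage, 0 of 20 genes rose and 7 fell, and without replicate 1 of *ACVR1* WT 3 rose and 14 fell (0 and 3 to 4). List counts here are to be read beside 16.1% higher and 14.5% lower of all genes, or 27.8% and 28.2% without that replicate. *Gpr17*, a receptor of committed precursors, varied widely between the controls. *Gpr17* read 36.2, 718 and 1264 CPM in *ACVR1* WT and 23.3, 19.2 and 15.8 CPM with both mutations, with log2 fold change -5.11 (standard error 1.19, adjusted p = 0.022, edgeR). All mutant samples lay under the lowest control, but the controls themselves spanned 36.2 to 1264 CPM. *Gpr17* read 68.6, 103 and 91.6 CPM with *ACVR1* R206H alone and 40.1, 45.85 and 34.1 CPM with *ACVR1* WT plus H3.1K27M. Replicates 2 and 3 of *ACVR1* WT were thus far above every other sample, and the fold change rests on them. *Sox8* read 421, 542 and 517 CPM against 234, 225 and 209.6 CPM, a firmer fall of 1.15 on the log2 scale (adjusted p = 0.0015, edgeR). The lineage factor *Olig2* read 799.9, 605 and 467 CPM against 758, 744 and 744 CPM and was not called, but without that replicate it was called higher (log2 fold change 0.48, adjusted p = 0.0055, edgeR). Neuronal genes were mixed, with 5 of 18 rising and 3 falling, against 6 and 8 without that replicate (3 to 5 and 3 to 5). *Gap43*, a growth cone gene, rose by 1.41 and *Map2*, a dendritic microtubule gene, fell by 1.19 on the log2 scale, while *Gad1* fell by 1.65 and its sister gene *Gad2* rose by 1.24. Among glutamate and GABA receptor and synapse genes 6 of 17 rose and 5 fell, and of 18 tested without that replicate 8 rose and 7 fell (3 to 5 and 1 to 5). *Gria4*, an AMPA receptor subunit gene, read 110.4, 131 and 125 CPM against 239, 256 and 257 CPM, and *Grik2*, a kainate receptor subunit gene, 68.04, 106 and 81.2 CPM against 31.6, 32.3 and 32.6 CPM. Among these genes, calls depending on 1 sample were those of *Gpr17* (4 of 6 omissions, -5.68 to -4.27) and *Gad2* (4 of 6 omissions, 1.000 to 1.496).

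Matrix proteoglycans of the brain also went both ways. *Ncan* encodes neurocan. *Ncan* read 2017, 1577 and 1199 CPM in *ACVR1* WT and 5678, 6058 and 6308 CPM with both mutations, with log2 fold change 1.91 (standard error 0.23, adjusted p = 0.0027, edgeR). It read 3318, 2742 and 2807 CPM with *ACVR1* R206H alone and 2549, 2744 and 2442 CPM with *ACVR1* WT plus H3.1K27M, so the highest samples were those with both mutations. *Gpc4*, a glypican, rose by 2.42. *Vcan*, versican, read 492, 609 and 647 CPM against 327, 353 and 309.9 CPM and fell by 0.82 on the log2 scale. Of 15 members 5 rose and 3 fell, and without replicate 1 of *ACVR1* WT 6 rose and 7 fell (3 to 4 and 1 to 3). Among all genes 16.1% rose and 14.5% fell, and 27.8% and 28.2% without that replicate.

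Of the Polycomb subunits, 1 of 20 rose (*Aebp2*, by 0.33) and 6 fell, beside 16.1% and 14.5% of all genes. Without replicate 1 of *ACVR1* WT 5 rose and 10 fell (0 to 1 and 3 to 5), beside 27.8% and 28.2%. *Ezh2*, the methyltransferase that H3.1K27M impedes, read 132, 75.2 and 59.9 CPM against 66.6, 64.8 and 64.4 CPM and was not called (log2 fold change -0.45, adjusted p = 0.27, edgeR). The cofactor gene *Jarid2* read 79.05, 89.6 and 81.6 CPM against 49.4, 48.04 and 47.2 CPM, with log2 fold change -0.79 (standard error 0.07, adjusted p = 0.0011, edgeR). *Bmi1*, a subunit of PRC1, fell by 0.64 and *Pcgf2* by 1.00 on the log2 scale. *Ezh1*, the alternative methyltransferase, fell by 0.66 on that scale. Leaving out 1 sample at a time ended the call of *Aebp2* (5 of 6 omissions, 0.28 to 0.43) and *Ezh1* (4 of 6 omissions, -0.797 to -0.56).

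Further genes were named for the smallest adjusted p. *Shisa3*, a negative regulator of WNT and FGF signals, read 14.2, 11.9 and 14.4 CPM against 194, 165 and 194 CPM, with log2 fold change 3.77 (standard error 0.11, adjusted p = 9.5e-05, edgeR). *Mctp1* read 2.02, 2.42 and 2.96 CPM in *ACVR1* WT, 8.098, 7.12 and 5.59 CPM with *ACVR1* R206H alone, 16.02, 14.9 and 17.9 CPM with *ACVR1* WT plus H3.1K27M and 45.8, 39.98 and 48.3 CPM with both mutations. Its level therefore went up at each step. *Ndrg4*, *Lynx1*, *Cox6b2*, *Tmem108* and *A2m* rose by 2.17, 2.82, 2.85, 2.03 and 2.56 on the log2 scale, with adjusted p values of 0.00012 to 0.00016. Among genes that fell, *Emp1*, an epithelial membrane protein, read 97.5, 98.3 and 87.6 CPM against 19.3, 19.3 and 18.9 CPM, with log2 fold change -2.30 (standard error 0.07, adjusted p = 0.00012, edgeR). *Smoc1*, a secreted BMP antagonist, read 675, 753 and 734 CPM against 236, 245 and 214 CPM, with a log2 fold change of -1.63 (adjusted p = 0.00045, edgeR). *Eya2*, *Rcor2*, *Edil3* and *Aph1b* fell by 2.89, 1.99, 2.33 and 1.46 on that scale. *Tyro3*, a receptor tyrosine kinase, and *Dab2* fell by 1.03 and 1.09, and *Polr2f* and *Rnaseh2b* each by 1.17.

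Markers of other cell types went both ways, and some fell deeply. *C1qa*, *C1qb* and *C1qc* encode the complement component C1q, which in brain comes mainly from microglia. *C1qa* read 1.08, 5.11 and 8.69 CPM in *ACVR1* WT and had 1 read in all with both mutations, a ratio of 350 with an exact counting interval of 62.3 to 13853. *Trem2*, *Csf1r*, *Ms4a7* and *Ctss* fell likewise, *Csf1r* from 0.894, 3.77 and 5.39 CPM to 0.0951, 0.129 and 0.0374 CPM. Of all genes 14.5% fell, and 28.2% without replicate 1 of *ACVR1* WT. Of 11 microglial and macrophage markers 8 passed the filter. Among these 6 fell, and 7 without that replicate (2 to 5 over the other 5 omissions). The other two, named after their values were seen, were *P2ry12*, a microglial purine receptor gene, with 0.988, 0.929 and 1.505 CPM against 2.28, 1.54 and 2.503 CPM (log2 fold change 0.88, adjusted p = 0.060, edgeR), and *Cd68*, a lysosomal gene of macrophages, with 4.19, 5.78 and 10.7 CPM against 3.71, 2.79 and 3.59 CPM (log2 fold change -1.03, adjusted p = 0.072, edgeR). The summed level of the list was 10.2 to 45.7 CPM in *ACVR1* WT, 15.8 to 17.5 CPM with *ACVR1* R206H alone, 4.73 to 6.72 CPM with *ACVR1* WT plus H3.1K27M and 5.06 to 6.95 CPM with both mutations. Of 3 choroid plexus markers tested, 1 rose (*Otx2*, given above) and 1 fell, *Ttr* with 19.6, 28.4 and 49.8 CPM against 0.903, 1.54 and 0.486 CPM, and the list summed to 25.6 to 55.9 CPM in *ACVR1* WT and 20.99 to 24.9 CPM with both mutations. *Ripply1* had 1 read and the antisense gene *4930481A15Rik* none with both mutations, the latter at least 23.8-fold lower against a floor of 3 counts per library, and *Tmem252* held 2 reads. The ependymal regulator *Foxj1* rose by 0.97, and 2 of 5 ependymal markers were called. Erythroid markers were near 0 in every group, and of 8 endothelial markers 2 passed the filter and 1 rose. Counting intervals cover counting error only. Calls that ended on omission of a sample were those of *C1qb* (1 of 6 omissions, -7.95 to -6.15), *Ms4a7* (1 of 6 omissions), *Ripply1* (1 of 6 omissions), *Tmem252* (5 of 6 omissions) and *Foxj1* (4 of 6 omissions, 0.799 to 1.302).

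Medians of the 20 gene lists, cell type marker lists left aside, ranged from -1.52 to 1.64 on the log2 scale, as the plot of list members shows.

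**Figure D5:**
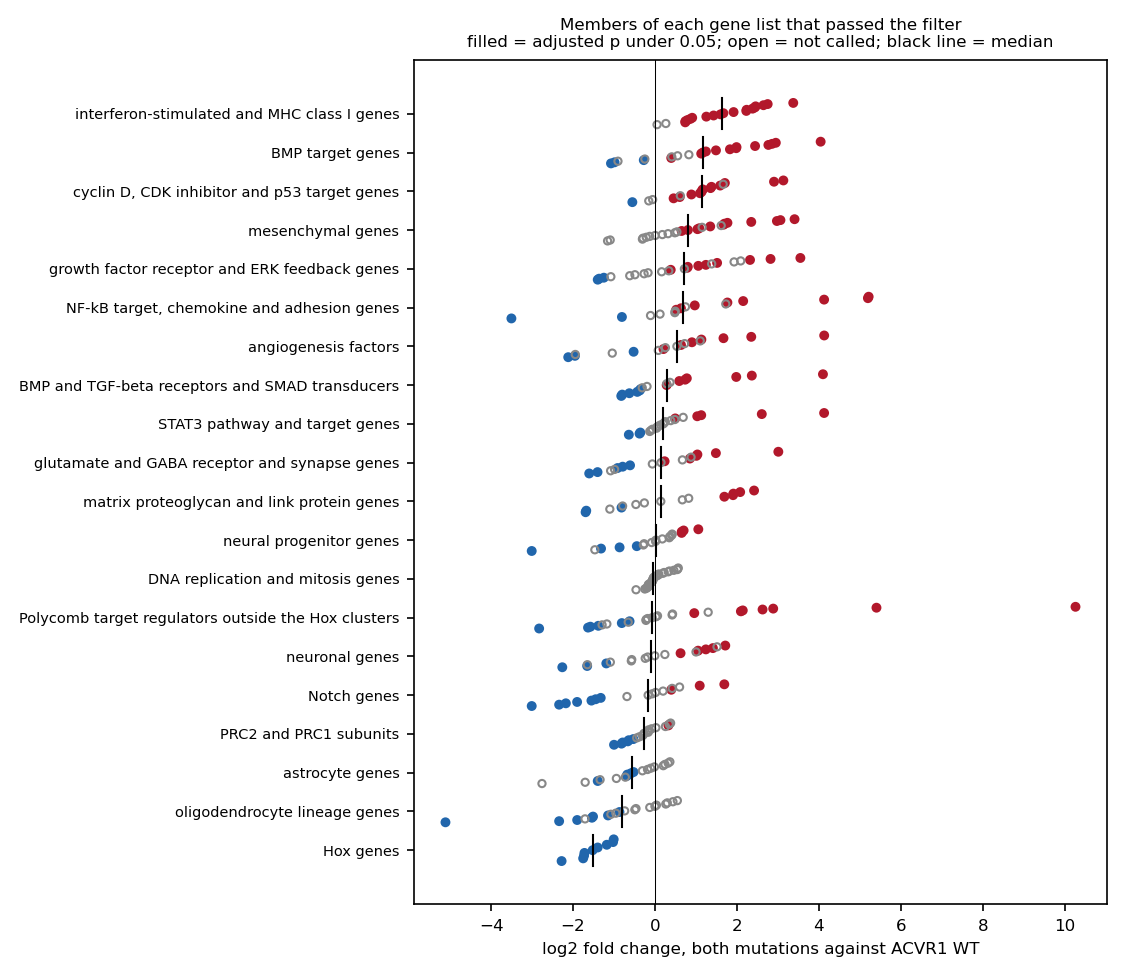
Log2 fold change of both mutations over *ACVR1* WT (horizontal axis) for each member of 20 gene lists that passed the filter, 1 row per list ordered by its median (black line); filled points have an adjusted p under 0.05 and open points do not. The interferon and MHC class I list has the highest median, 1.64, and the *Hox* list the lowest, -1.52.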

How the data were processed

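RNA was sequenced from cultured brainstem progenitors of 4 groups with 3 samples each. Per the labels and the methods of the study, the authors aligned reads to the mouse genome mm10 with STAR (version 2.6.0b-1 in the submitters' processing notes) and counted them per gene with HTSeq in union mode, without regard to strand and leaving out reads that matched several genes. The deposited values are raw counts, 1 file per sample, with no normalization. Summaries of unassigned reads were not used here.

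Counts of the 6 samples compared were tested with edgeR 4.0.16 in R 4.3.3, by TMM normalization and the quasi-likelihood F test with group as the only term, keeping genes that averaged 10 or more normalized counts. Adjusted p-values (Benjamini-Hochberg over every gene tested) under 0.05 were called. The 4 comparisons that change 1 mutation at a time were fitted likewise, each on its own 6 samples. Scripts were tested on simulated counts. Genes named are *Id1*, *Icam1* and *Acvr1*, in each direction the 12 with the smallest adjusted p and the 8 with the largest fold (at least 1 CPM in the higher group) among called genes whose groups did not overlap, and members of the gene lists by adjusted p or abundance. Values of a few list members are not reported here. Members and lists were chosen with earlier results of these data known. Alternatives were DESeq2 1.42.0, its size factors, other filters on low counts, a replicate block, all 12 samples, limma 3.58.1 with sample weights, robust estimation, a fold threshold and each sample left out. The step comparisons without replicate 1 of *ACVR1* WT and the interaction of both mutations were added after the data were seen. Sequences before start sites came from RefSeq. Total counts of 19315020 to 26456257 per sample set the precision, and counting intervals are exact.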

Additional observations from a re-analysis of the deposited data

Results flagged for a closer look

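Whether the effect of R206H differed between cultures with and without H3.1K27M was tested as an interaction in an edgeR fit of all 12 samples, which called 11 of 15445 genes, 9 of them with a higher effect beside H3.1K27M. Of the genes named above, 3 were among them. For *Id3* the difference of the 2 effects was 2.31 on the log2 scale (standard error 0.23, adjusted p = 0.0059, edgeR). For *Id2* it was 1.75 (standard error 0.18, adjusted p = 0.0059, edgeR). For *Id1* it was 1.79 (standard error 0.28, adjusted p = 0.063, edgeR), which was not called. For *Adm* it was -1.18 (standard error 0.15, adjusted p = 0.021, edgeR). The R206H samples of the 2 backgrounds also differed in *Acvr1* RNA, which averaged 50.5 CPM with *ACVR1* WT, 94.2 CPM with *ACVR1* R206H alone, 234 CPM with *ACVR1* WT plus H3.1K27M and 868 CPM with both mutations, and the part of this difference in the results was not tested.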

How the results depend on the processing

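Of the 149 named genes that were called, none changed direction under any alternative and 106 kept their call in every one that gave a value. The count of 4764 called genes became 9666 with limma voom and sample quality weights, 3006 with the replicate block and 1808 with a log2 fold change of at least 1 required. Those weights were 0.102, 2.98 and 0.465 for replicates 1, 2 and 3 of *ACVR1* WT. The 2508 higher genes became 4730 with quality weights and 1275 with the fold threshold. The 2256 lower genes became 3663 with all 12 samples in one fit, 4936 with quality weights, 1184 with the block and 533 with the fold threshold. Leaving out 1 sample gave 1792 to 8748 calls, 1223 to 4341 higher and 569 to 4407 lower. The highest counts came without replicate 1 of *ACVR1* WT and the lowest without replicate 3 of both mutations, and totals were 2413 without replicate 2 of *ACVR1* WT and 2095 and 2240.0 without replicates 1 and 2 of both mutations. Calls among list members numbered 189, 318 with quality weights and 99 to 308 with 1 sample left out. For *ACVR1* R206H alone against *ACVR1* WT, 0 calls became 26 with DESeq2, 11 with all 12 samples and 3485 without replicate 1 of *ACVR1* WT. For *ACVR1* WT with against without H3.1K27M, 3533 became 2023 with the block, 6335 with all 12 samples and 8115 without that replicate. For both mutations against *ACVR1* WT with H3.1K27M, 3185 became 440 with all 12 samples. The cause was not tested. Direction turned for 6 genes that were not called. *Mki67* was 0.59 with the block, 0.79 with quality weights and -0.53 to 1.27 with 1 sample left out. *Top2a* was 0.49, 0.72 and -0.54 to 1.15 in the same fits. *Mcm5* was -0.37 to 1.43 and *Id4* -0.70 to 0.26 with 1 sample left out. *Trp53* was 0.062 with quality weights and -0.28 to 0.11 with 1 sample left out. *Stat2* was -0.082 with quality weights and -0.053 to 0.14 with 1 sample left out. Samples of *ACVR1* WT and of both mutations with 1 replicate number deviated together with correlations of -0.006, 0.11 and 0.048. The main fit did not pair the samples, but values from groups this small cannot exclude a pairing. For its other neurosphere assays the study used paired t tests on cell lines from separate litters. The replicate block ended the calls of 13 named genes. They were *Acvr1c*, *Aebp2*, *Angpt1*, *Bmpr1b*, *Erbb3*, *Etv4*, *Gpr17*, *Osmr*, *Skil*, *Tmem100*, *Tnfrsf1b*, *Vcam1* and *Vim*. At this depth genes of few reads, such as the *Hox* genes, carry wide errors.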
